A study of Drosophila melanogaster with 3 samples.

Results

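The Cpr genes are the Drosophila melanogaster cuticle protein genes whose symbol is Cpr followed by a cytological position, such as Cpr49Ac. All protein-coding genes with such a symbol in the Ensembl annotation of genome build dm6 were taken, which gave 70 genes of 13945 protein-coding genes on the 6 main chromosome arms. Their occupancy by Rel (Relish), a transcription factor of the NF-κB family, was read from chromatin immunoprecipitation followed by sequencing (ChIP-seq). The 3 samples are biological replicates of 1 group. Each came from whole wandering larvae of the last larval stage (L3), with males and females pooled and of unknown age, from a transgenic line stably expressing Rel with an N-terminal GFP tag. The sample descriptions name an antibody against GFP, whereas the antibody label reads Rel, and the former is followed here. Fragments were of 200 to 800 bp, per the labels. The samples form a single condition, so no conditions could be compared, and the control experiment that the labels name was not analysed here. Whole animals mix epidermis, which makes cuticle, with all other tissues, so the peaks cannot be assigned to a cell type.

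Insect cuticle is a layered material of chitin fibres and proteins that the epidermis secretes anew at each moult. The Cpr proteins carry the Rebers-Riddiford consensus, a sequence by which such proteins bind chitin, and many of their genes lie in tandem clusters and are switched on in short windows set by ecdysone. Rel acts downstream of IMD signalling in immunity and binds κB sites, best known at antimicrobial peptide genes.

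Few Cpr genes had a Rel peak at their start. The rule used the authors' optimal list, the 9419 peaks kept by an irreproducible discovery rate threshold. A summit of this list had to lie at most 1000 bp from any annotated transcription start site (TSS) of the gene. Of 70 Cpr genes, 3 met this rule, Cpr73D, Cpr49Ac and Cpr51A (4.29%, exact Clopper-Pearson 95% interval 0.893 to 12.02%). Of all 13945 protein-coding genes, 37.9% did. The 70 genes formed 34 loci when members within 10 kb of each other were joined, and 3 of the 34 loci had a peak, with 1 gene each. The interval covers counting error only, and it treats genes of 1 locus as separate although they are not independent. No test of the list against other genes was made.

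The sequences shown here carry the strongest results among those that could be printed, and come from the RefSeq release 6 genome, which has dm6 coordinates. The first is the window of 201 bp around the strongest summit near any Cpr gene, 922 bp upstream of the Cpr73D TSS (chr3L:16958511-16958711, plus strand). Capitals mark a match to GGGRNNYYYY, a relaxed form of the κB consensus GGGRNNYYCC (R is A or G, Y is C or T, N is any base). The match lies on the minus strand at chr3L:16958604-16958613 and includes the summit base. The relaxed form was found at 20.6% of all optimal peaks.
Cpr73D summit: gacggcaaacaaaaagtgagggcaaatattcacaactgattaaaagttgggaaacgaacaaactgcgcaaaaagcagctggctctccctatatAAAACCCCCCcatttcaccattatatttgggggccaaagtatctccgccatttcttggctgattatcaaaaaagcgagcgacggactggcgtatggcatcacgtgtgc

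The next pair are the strongest summits near Cpr genes that were in the authors' pooled list but fell outside the optimal list, at Cpr62Ba (chr3L:1828029-1828229) and Cpr78E (chr3L:21666999-21667199), both on the plus strand. They hold no match to the relaxed κB form, and capitals mark the 5 bases centred on the summit.
Cpr62Ba summit: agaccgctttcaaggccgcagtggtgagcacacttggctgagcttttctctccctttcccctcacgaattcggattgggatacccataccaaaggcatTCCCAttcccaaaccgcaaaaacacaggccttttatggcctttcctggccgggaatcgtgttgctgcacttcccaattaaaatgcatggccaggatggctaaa
Cpr78E summit: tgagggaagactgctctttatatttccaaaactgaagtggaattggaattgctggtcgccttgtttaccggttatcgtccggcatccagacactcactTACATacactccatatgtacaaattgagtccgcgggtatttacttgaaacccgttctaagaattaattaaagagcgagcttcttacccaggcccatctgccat

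The last 3 are the 80 bases before the TSS of 1 gene from each of 3 clusters, Cpr64Aa (chr3L:4209179-4209258), Cpr65Av (chr3L:6139975-6140054) and Cpr76Ba (chr3L:19518333-19518412). In these clusters no list had a summit within 1000 bp of a Cpr TSS. The 3 sequences are on the minus strand and written 5′ to 3′ along the gene. Capitals mark TATAAA, the TATA box sequence, which starts 33 bases before the TSS at Cpr64Aa and 27 before it at the other two.
Cpr64Aa promoter: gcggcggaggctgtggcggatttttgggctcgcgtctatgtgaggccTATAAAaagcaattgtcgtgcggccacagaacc
Cpr65Av promoter: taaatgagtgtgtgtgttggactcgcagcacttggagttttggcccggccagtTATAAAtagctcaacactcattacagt
Cpr76Ba promoter: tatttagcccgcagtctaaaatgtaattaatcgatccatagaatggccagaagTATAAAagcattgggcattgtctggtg

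The 3 genes with an optimal peak had 6 distinct summits near their TSSs. Peaks are counted by summit, including where summits share a peak interval, as at Cpr49Ac. Peak height is the signal that the authors' peak caller gave. It serves only for ranking inside 1 list, where rank 1 is the highest. Signal in a replicate was taken from its peak with a summit within 100 bp and divided by that replicate's median over all optimal peaks matched in this way, which gives the relative signal.

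Cpr73D (chr3L:16939100-16957689, minus strand) had the strongest. The summit shown above was at rank 218 of 9419 (peak chr3L:16957918-16959051). Its signal was 1122 in replicate 1, 1269.7 in replicate 2 and 1420.3 in replicate 3. The corresponding relative signals were 9.34, 9.52 and 9.20, a mean of 9.35 ± 0.157 (SD, n = 3). All replicates thus placed it at about the same height above the median peak, between ranks 182 and 254 of their lists. The summit lay inside an intron of Ogdh, which encodes a subunit of the alpha-ketoglutarate dehydrogenase complex of the citric acid cycle and runs on the opposite strand over the start of Cpr73D. The nearest TSS of any gene was still that of Cpr73D.

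A second summit at Cpr73D was at rank 2976 (chr3L:16957098-16957655), 280 bp downstream of the TSS in the 5′ UTR. It was only 30 bp from a TSS of Ogdh, so by nearest start it belonged to that gene. Its relative signal was 1.60, 1.29 and 1.42 in replicates 1 to 3, a mean of 1.43 ± 0.157 (SD, n = 3). Of the 6 summits, it was the 1 that lay nearer to another gene than to the Cpr gene. Another pair of optimal summits inside the Cpr73D gene body, at ranks 2997 and 6749, lay 21 and 84 bp from other Ogdh TSSs. Cpr73D had 2 TSSs, and no optimal summit lay within 1000 bp of the inner one.

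Cpr49Ac (chr2R:12386666-12390057, plus strand) had 3 summits near its start. Those at ranks 4687 and 7079 lay in the same peak interval (chr2R:12386135-12386843). Distances are to the nearer of the 2 TSSs of Cpr49Ac. The first summit, at rank 4687, was 305 bp upstream of the outer TSS. The next, at rank 5052, was 546 bp downstream of the inner TSS in a coding exon. The last, at rank 7079, was 104 bp upstream of the outer TSS. At the first, relative signal was 0.581 in replicate 1, 1.30 in replicate 2 and 0.849 in replicate 3 (0.909 ± 0.362, SD, n = 3). The replicates were spread most widely there among the 6 summits, with replicate 2 highest. The other summits had 0.872 ± 0.161 and 0.581 ± 0.133 (SD, n = 3), with replicate 3 highest and replicate 1 lowest at both.

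The Cpr49Aa to Cpr49Ad locus around Cpr49Ac (chr2R:12376626-12391699) held 8 optimal summits within its span of 15074 bp. Besides the 3 just described, these were at ranks 1926, 3492, 3793, 8312 and 9330. The strongest, at rank 1926, was 1082 bp from CG8501, another gene inside the locus, and that at rank 3793 lay in a coding exon of Cpr49Ac 1634 bp from its nearest TSS. Cpr49Ad was 1356 bp from its nearest optimal summit, Cpr49Ab 3132 bp and Cpr49Aa 3929 bp, so Cpr49Ac alone among the 4 genes met the 1000 bp rule.

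Cpr51A (chr2R:14512559-14515211, minus strand) had 1 summit, 197 bp upstream, at rank 9344 of 9419. Its pooled signal of 193 was close to the lowest of the optimal list, 191. Relative signal was 0.638 in replicate 1, 0.299 in replicate 2 and 0.557 in replicate 3 (0.498 ± 0.177, SD, n = 3). Replicate 2 was lowest, at rank 14545 of its list, whereas in the other two the peak was at ranks 7875 and 8987. The Cpr51A peak was thus the member nearest to the edge of the list by height.

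**Figure D1:**
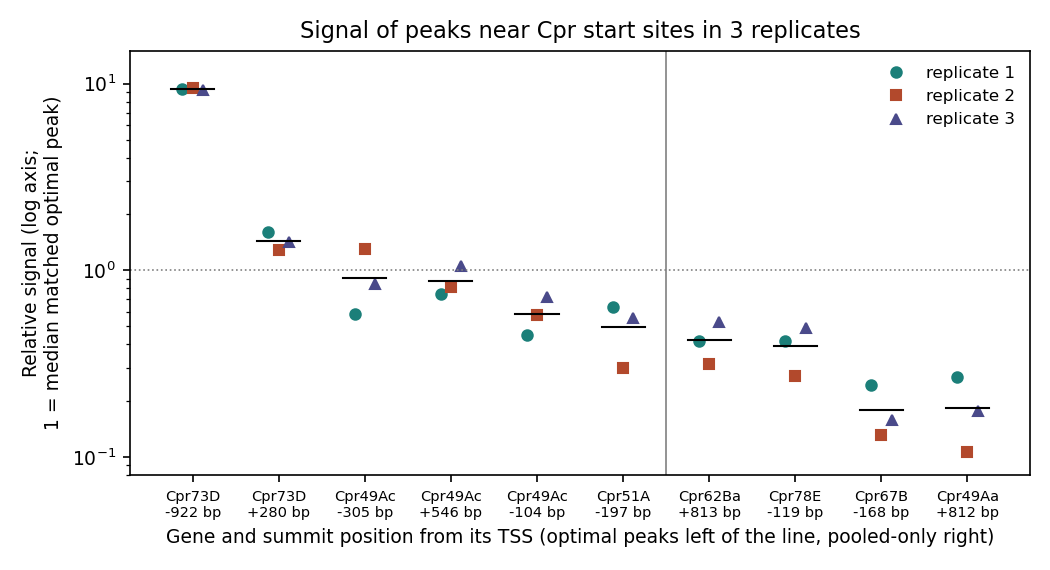
Relative signal, on a log axis, of 10 peaks near Cpr start sites in replicates 1 to 3, with black bars for the mean. The 6 optimal peaks are on the left and the strongest pooled-only peak of each gene, where matched in all 3 replicates, is on the right. The Cpr73D summit at -922 bp stands at 9.35 in the mean and no other peak shown has a mean above 1.43.

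The 6 summits were spread over the list. Their median rank was 4869.5, beside 4545 for the 5443 optimal summits within 1000 bp of any protein-coding TSS. The range from rank 218 to rank 9344 covers nearly the whole list. With 6 summits at 3 genes, no typical height can be given for Cpr peaks.

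By distance, the genes just outside the rule were Cpr97Eb, at 1232 bp from a summit of rank 1443, and Cpr49Ad, at 1356 bp. Next came Cpr57A at 2023 bp and Cpr67B at 2344 bp. The Cpr57A summit was 50 bp from the starts of CG13430 and BORCS7, and that of Cpr67B was 7 bp from the start of eIF4E1, a cap-binding translation initiation factor. The nearest optimal summits of the 70 genes were 41 distinct summits. Of these, 4 had a Cpr gene as the nearest protein-coding gene, and 21 lay within 500 bp of the TSS of some other gene.

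The distance from a TSS to the nearest optimal summit had a median of 11562 bp over the 70 Cpr genes, with quartiles of 5636 and 20934 bp. Over all protein-coding genes the median was 3106 bp, with quartiles of 160 and 12686 bp. The longest distance among Cpr genes was 75086 bp, at Cpr92F. Within 500 bp 3 Cpr genes had an optimal summit (33.5% of all genes), within 2000 bp 5 (43.9%) and within 5000 bp 16 (58.2%). The share of Cpr genes was below that of all genes at each of these distances. At 500 bp Cpr73D was counted only through its summit at 280 bp, which lay 30 bp from an Ogdh TSS.

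**Figure D2:**
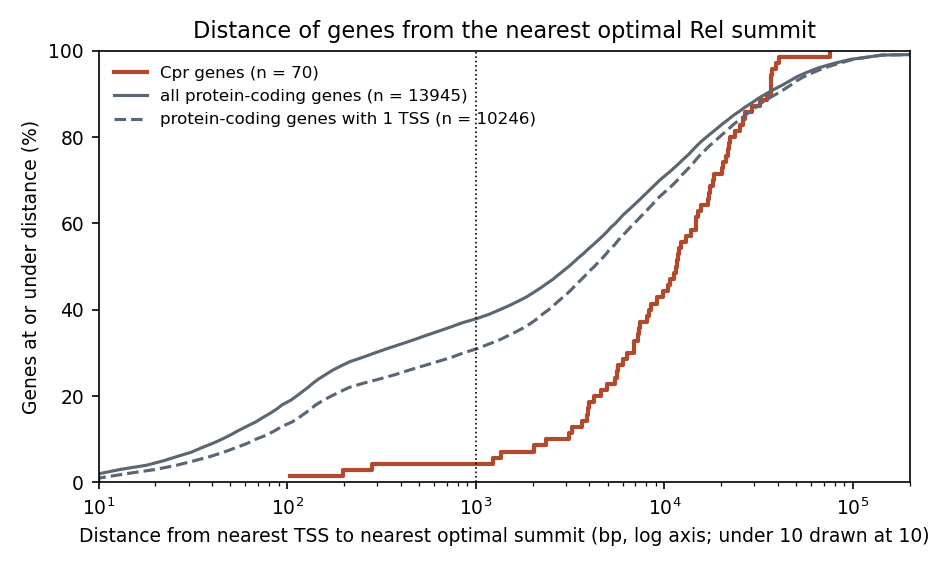
Cumulative share of genes (%) by distance in bp, on a log axis, from a TSS to the nearest optimal summit. The lines are the 70 Cpr genes, all 13945 protein-coding genes and the 10246 protein-coding genes with 1 TSS, and the dotted line is at 1000 bp. At 1000 bp the Cpr line is at 4.29% and the other lines at 37.9% and 30.9%.

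The share of Cpr genes stayed below that of all genes under other ways of counting. With each summit given only to the gene of the nearest TSS, the same 3 Cpr genes were counted (29.1% of all genes). When the peak interval rather than the summit had to reach the window, Cpr97Eb was added, giving 4 (39.1%). In the top 50% of the optimal list by signal, Cpr51A was lost and 2 genes were counted (22.9%). Cpr49Ac was kept there by a summit close to the cut, at rank 4687 where the median rank is 4710. Among optimal peaks matched in the top peaks of both other replicates, 2 genes were counted without replicate 1 (30.8%), 3 without replicate 2 (30.8%) and 2 without replicate 3 (29.7%). Cpr51A was the gene lost in both cases. These sets are parts of the optimal list, which was derived from all 3 replicates, so their counts could not exceed 3.

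Genes with several TSSs have more sequence in which a summit can be counted, and Cpr genes had few. Of the 70, 63 had 1 distinct TSS and the other 7 had 2. Among all protein-coding genes with 1 TSS, 3169 of 10246 had an optimal summit (30.9%), and among Cpr genes with 1 TSS, 1 of 63 did (1.59%, exact 95% interval 0.0402 to 8.53%). That gene was Cpr51A. Median gene length was 1094 bp for Cpr genes and 2166 bp for all.

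The neighbours of Cpr genes were counted as well. Of 176 other protein-coding genes within 10 kb of a Cpr gene, 53 had an optimal summit (30.1%, exact 95% interval 23.4 to 37.5%). Without other genes of the Rebers-Riddiford family, it was 53 of 163 (32.5%). These subsets were chosen after the main counts had been seen, and their difference from the Cpr genes was not tested.

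Clusters were described by size. The 21 loci of a single Cpr gene had 2 with an optimal peak, at Cpr73D and Cpr51A. The 7 loci of 2 or 3 genes had none within 1000 bp of a Cpr TSS. Of 6 loci with at least 4 genes, holding 30 genes in all, 1 had a peak, that of Cpr49Aa to Cpr49Ad with 1 of 4 genes.

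The other 5 large clusters were empty of optimal summits over their whole span. How often spans of such length elsewhere in the genome are empty was not counted, so this is a description only. Cpr65Au to Cpr65Az spans 30348 bp and holds 7 Cpr genes and 11 other protein-coding genes, with its members 8282 to 36987 bp from a summit. Cpr47Ea to Cpr47Eg spans 26695 bp with 7 Cpr genes, 5445 to 17173 bp away. Cpr76Ba to Cpr76Bd spans 20738 bp, with its 4 genes 23597 to 36881 bp away, so that its closest member was farther from a summit than that of the other 4 clusters. For the 4 genes from Cpr49Ae to Cpr49Ah the distances were 11623 to 17450 bp, and for the 4 from Cpr64Aa to Cpr64Ad they were 6041 to 12242 bp.

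The pooled list, called by the authors on all 3 replicates together, holds 30000 peaks and reaches far weaker ones. It had a summit within 1000 bp of 14 Cpr genes in 11 loci (exact 95% interval 11.4 to 31.3%), beside 53.6% of all genes. The 11 genes added were led by Cpr62Ba (rank 9820 of 30000), Cpr78E (rank 10836), Cpr12A (rank 14868), Cpr67B (rank 18364) and Cpr49Aa (rank 18938). The remaining 6 were Cpr66D, Cpr65Ec, Cpr49Ab, Cpr35B, Cpr23B and Cpr49Ad, at ranks 21971 to 29546. The Cpr23B summit was 61 bp from the start of CG3119 and in a coding exon of it, so the nearest start was not that of Cpr23B.

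Cpr62Ba was the member just below the optimal threshold, with a summit 813 bp downstream of the inner of its 2 TSSs, in an intron. Its relative signal was 0.418 in replicate 1, 0.314 in replicate 2 and 0.529 in replicate 3 (0.421 ± 0.107, SD, n = 3). For Cpr78E, with a summit 119 bp upstream, it was 0.420, 0.272 and 0.490 (0.394 ± 0.111). These values overlap those of Cpr51A, which the optimal list includes, although its pooled signal of 193 was above 181 at Cpr62Ba and 160.4 at Cpr78E. At Cpr67B and Cpr49Aa the mean was 0.177 ± 0.0594 and 0.183 ± 0.0809 (SD, n = 3), lower than in any optimal peak of a Cpr gene.

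**Figure D3:**
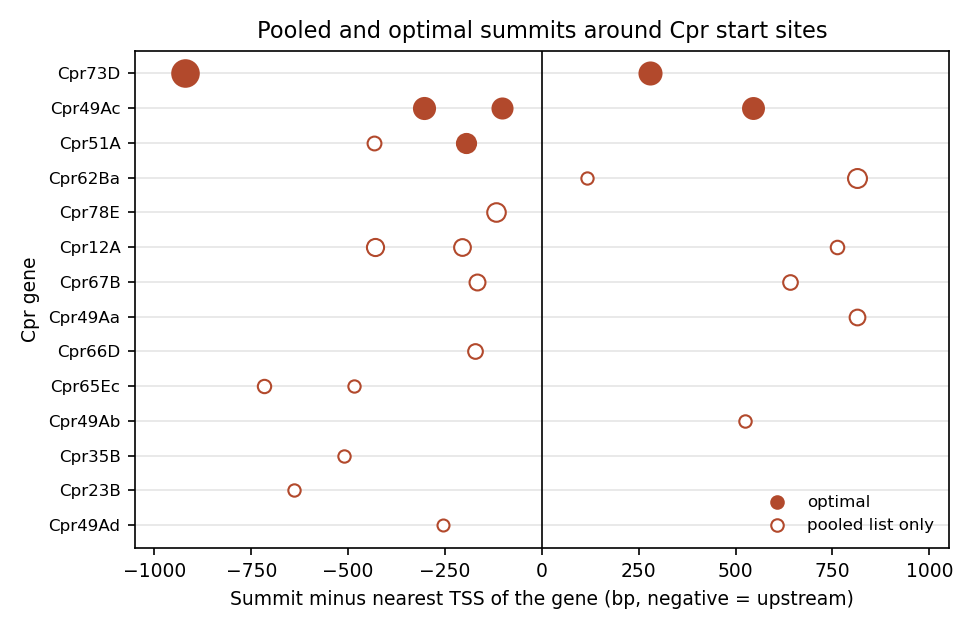
Position in bp of each pooled summit relative to the nearest TSS of 14 Cpr genes, negative values being upstream. Filled symbols are optimal peaks, open symbols are in the pooled list only, and larger symbols have higher signal. Filled symbols appear at Cpr73D, Cpr49Ac and Cpr51A and nowhere else.

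The lists called in each replicate alone were counted by the same rule. Among the 9419 highest peaks of each list, replicate 1 had a summit near 3 Cpr genes (37.9% of all genes), replicate 2 near 3 (38.6%) and replicate 3 near 4 (37.8%). The mean was 4.76% ± 0.825 (SD, n = 3) of Cpr genes and 38.1% ± 0.436 of all genes. Cpr73D and Cpr49Ac were found in all 3, as were 30.9% of all genes. Cpr51A was found in replicates 1 and 3, Cpr65Ea in replicate 2 alone and Cpr62Ba in replicate 3 alone. Of all genes, 7.37% were found in exactly 2 replicates and 6.81% in exactly 1. The SDs describe how repeatable the calls were on the same genes, and say nothing of how 70 genes compare with others.

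Among all 30000 peaks of each list, 11 Cpr genes had a summit in replicate 1 (56.3% of all genes), 14 in replicate 2 (56.4%) and 15 in replicate 3 (55.8%). In all 3 lists 9 genes in 7 loci had one: Cpr49Aa, Cpr49Ab, Cpr49Ac, Cpr51A, Cpr62Ba, Cpr67B, Cpr73D, Cpr78E and Cpr12A. Of all protein-coding genes, 49.8% had one in all 3. In replicates 2 and 3 the strongest summit near Cpr49Ab was the same as that near Cpr49Aa, the nearer gene. In 2 lists there were 3 Cpr genes (907 of all genes), in 1 list 7 (852 of all genes) and in none 51 (37.6% of all genes). Over all 5 peak lists, 20 of 70 Cpr genes, in 14 of 34 loci, had a summit within 1000 bp in at least 1 list. The other 50 genes had none, whereas 62.7% of all genes had one.

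Some clusters had summits within 1000 bp of a Cpr TSS in 1 or 2 replicates only. Cpr47Eb and Cpr47Ec had one in replicate 3 alone, and Cpr97Eb in replicates 2 and 3. Cpr65Ea, Cpr65Eb and Cpr65Ec each had a summit in replicate 2 and none in replicates 1 and 3. The Cpr65Ea summit was at rank 6492 of replicate 2, with a signal of 101, and was the one that entered that replicate's top peaks. Those of Cpr65Eb and Cpr65Ec were weak, at ranks 29345 and 24776 of the 30000 peaks of replicate 2. Of the 3 genes only Cpr65Ec was in the pooled list, at rank 25764, and none was in the optimal list.

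**Figure D4:**
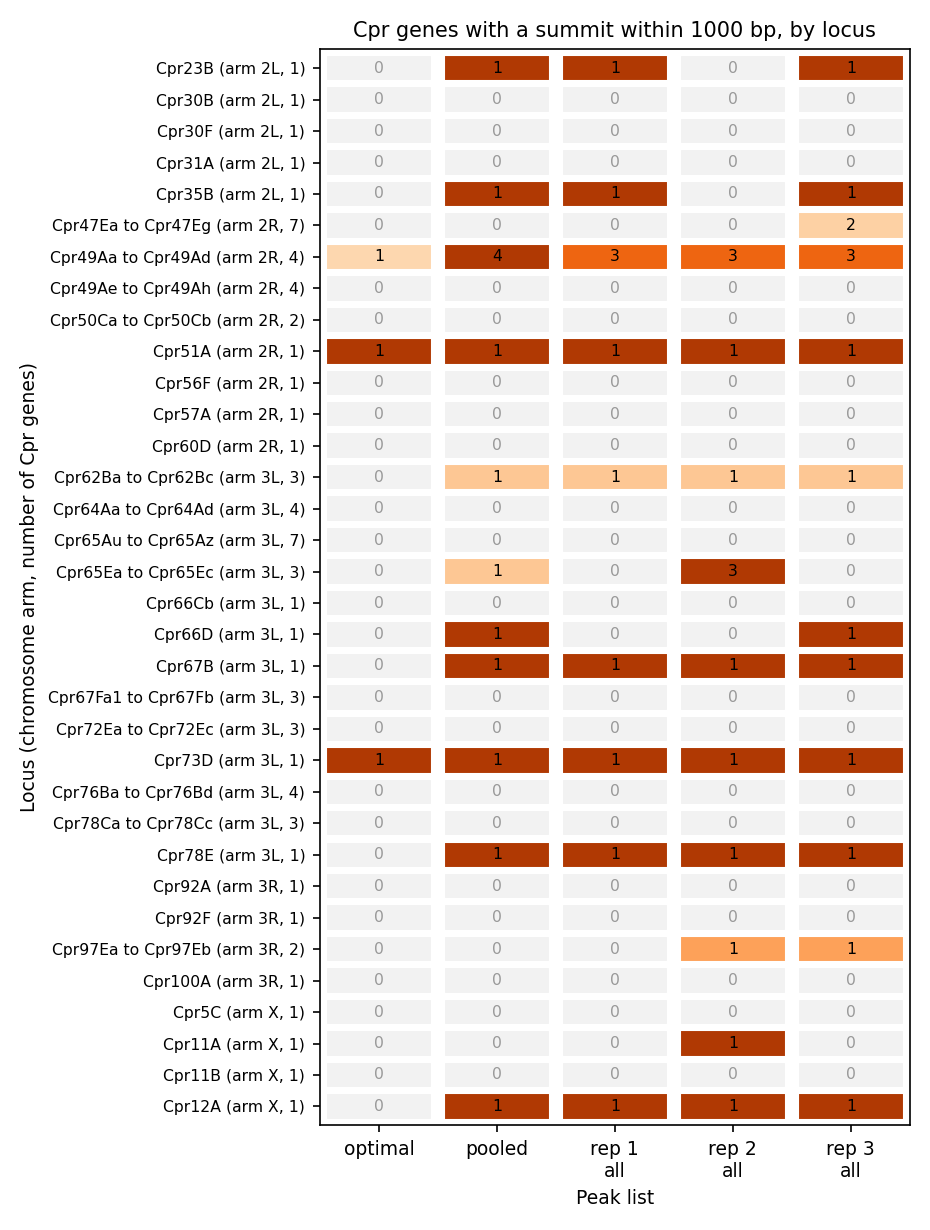
Number of Cpr genes with a summit within 1000 bp at each of 34 loci (rows, with arm and number of Cpr genes) in 5 peak lists (columns, optimal, pooled and all peaks of each replicate). Darker cells hold a larger share of the genes of the locus. The optimal column has 3 filled cells and the pooled column 11.

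**Figure D5:**
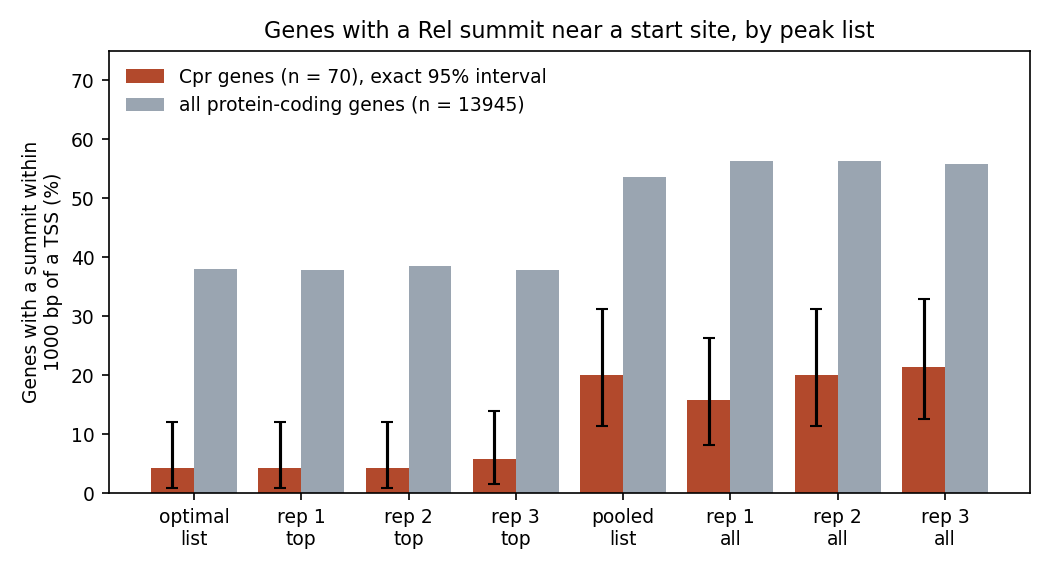
Share of Cpr genes (%, with exact 95% intervals) and of all protein-coding genes with a summit within 1000 bp of a TSS in 8 sets of peaks. Cpr shares run from 4.29% to 5.71% in the optimal list and the top peaks of replicates, and from 15.7% to 21.4% in the pooled list and all peaks of replicates. The share of all genes is at least 37.8% in each set.

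Sequence at the peaks and at the promoters was then described. The κB consensus, on either strand within 100 bp of the summit, was present at 0 of 6 Cpr peaks. It was at 7.80% of all 9419 optimal peaks and at 5.86% of the 5443 within 1000 bp of a protein-coding TSS. Either share corresponds to fewer than 1 of 6 peaks. The relaxed form, which contains every match of the consensus, was at 2 of 6, the strongest Cpr73D summit and the Cpr49Ac summit of rank 7079. It was at 20.6% of all optimal peaks and at 17.2% of those near a TSS. In promoters, from 250 bp before to 50 bp after each TSS, the consensus was found at 0 of 70 Cpr genes (exact 95% interval up to 5.13%) and at 2.88% of all protein-coding genes. The relaxed form was at 5 of 70 (7.14%), beside 14.6% of all genes, and those genes were Cpr49Ac, Cpr64Ab, Cpr65Az, Cpr66D and Cpr76Bc. A missing match says only that these letters are not in the window. Genes with several TSSs had more promoter sequence searched, and Cpr genes had few, so the promoter shares are not from equal searches.

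Core promoter motifs were counted in the same promoters. TATAAA, searched on the gene's strand and starting 20 to 40 bp before a TSS as in the promoters shown above, was present at 38 of 70 Cpr genes (54.3%, exact 95% interval 41.9 to 66.3%) and at 9.40% of all genes. TATCGATA, the DNA replication-related element found at many housekeeping promoters, was at 1 of 70 (1.43%, Cpr49Af) on either strand and at 10.2% of all genes. GAGAG, on either strand, was about as frequent at Cpr genes (37.1%) as at all genes (36.3%). Windows of one gene can overlap where it has 2 TSSs, and each motif was counted on its own, so matches of different motifs may overlap. Here too, genes with several TSSs had more sequence searched.

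Genes were also split by TATAAA. Over all protein-coding genes, 311 of 1311 with TATAAA had one (23.7%), beside 4977 of 12634 without it (39.4%). Among Cpr genes it was 2 of 38 with TATAAA (5.26%) and 1 of 32 without (3.13%), counts too small to give a direction. The part of promoter type in the low share of Cpr genes was not tested.

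Other cuticle genes were counted for setting, with the same rule and beside the same 37.9% of all genes. Of 29 genes of the Rebers-Riddiford family under other names, such as the larval cuticle protein (Lcp) genes, 4 had an optimal summit (13.8%, exact 95% interval 3.89 to 31.7%). They were Lcp9 at rank 1686, whose summit was 35 bp from CG3594, the pupal cuticle protein gene Pcp at rank 3556, 26 bp from its TSS, and Lcp2 and Lcp3, which share the summit at rank 6486. Together with the Cpr genes the family had a summit at 7 of 99 genes (7.07%) and at 6 of 40 loci. Of 26 Tweedle genes, cuticle proteins of another family, 1 had a summit, TwdlE at rank 5181 (3.85%, exact 95% interval 0.0973 to 19.6%).

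Genes whose products build and harden the cuticle were counted too. Of 20 genes of chitin synthesis and turnover, 7 had an optimal summit (35.0%, exact 95% interval 15.4 to 59.2%), led by mmy (rank 795), which makes the sugar precursor of chitin, Cht2 (rank 1285), a chitinase whose summit was nearer to CG8001, and rtv (rank 5401), whose summit was nearer to Dlic. Of 10 genes of cuticle tanning, 5 had one (exact 95% interval 18.7 to 81.3%), led by Ddc (rank 806), the dopa decarboxylase, b (rank 852), which makes beta-alanine, and yellow-f (rank 1112). These intervals are wide and include the share of all genes, and the lists were not compared by a test.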

How the data were processed

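ChIP-seq of GFP-tagged Rel in 3 biological replicates of whole larvae was used as deposited peak lists. The authors made 1 list per replicate and 1 from the pooled alignments, with a control library and on build dm6, and derived the optimal list from these, per the file headers. For the aligner, peak caller and thresholds, nothing is stated in the sources used here. Each deposited peak has the authors' signal value and a −log10 q-value, which is a single value, 4.43, throughout the optimal list, so ranks use signal. The lists hold no read counts, so sequencing depth is unknown, and signal was compared between replicates only as relative signal.

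Summits were placed 1-based as start + offset + 1. All peak ends lay inside the RefSeq release 6 arms, and genes and TSSs came from Ensembl release 115. The 6 arms 2L, 2R, 3L, 3R, 4 and X were used, since no list has a peak elsewhere. Loci join Cpr genes at most 10 kb apart. Python 3.11.15 with NumPy 2.4.6, pandas 2.3.3, SciPy 1.17.1 and matplotlib 3.10.9 were used, and the functions were tested on simulated data. Intervals are exact Clopper-Pearson 95% and cover counting error only. The rule for named genes took every Cpr gene with an optimal peak, the 5 strongest with a pooled peak only, every locus of 4 or more genes, and up to 3 genes of each related list. Other genes were named as neighbours or after their values were seen. Members, lists and rules were chosen with earlier results of these data known. Of the related list names, knk2, knk3, stw3 and Dat were not matched. A planned count of protein features was not made, as no protein table was at hand.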

Additional observations from a re-analysis of the deposited data

How the results depend on the processing

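Of 70 Cpr genes, 3 had an optimal summit near a TSS. The count moved to 5 with a 2000 bp window, 16 with a 5000 bp window, 14 with the pooled list and 1 among genes with 1 TSS, the last added after seeing the data. The count of loci, 3 of 34, moved to 12 with a 5000 bp window and 11 with the pooled list, and stayed at 3 with loci joined within 5 kb (43 loci), within 20 kb (33 loci) or over the wider family (40 loci), counting only loci where a Cpr gene itself had the peak. Keeping optimal peaks matched in the top peaks of 2 replicates, with each replicate left out in turn, gave 2 to 3 genes and 2 to 3 loci. These sets are parts of the same optimal list, so neither count could exceed 3. The count of genes with a summit in all 3 replicates went from 2 among top peaks (30.9% of all genes) to 9 among all peaks (49.8%). Cpr peaks with a κB match went from 0 to 2 with the relaxed consensus and stayed at 0 within 200 bp. The median rank of Cpr peaks, 4869.5, was 5883 with a 500 bp window and 4687 for the strongest peak of each gene. The median relative signal of Cpr peaks, 0.890, was the same for matches within 50 and 250 bp. No paired analysis was possible because the 3 replicates form 1 group. With 3 samples, single samples were not examined as outliers. Read depth is unknown, so a gene with no summit is one without a called peak, not one shown to lack Rel.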
